A study of Schizosaccharomyces pombe with 29 samples.

Results

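RNA from the 2 deleted RNase H genes of fission yeast and from their chromosomal neighbours was followed in 8 RNA-seq libraries of Schizosaccharomyces pombe. The set holds 10 of the 7016 genes in the deposited table. It consists of rnh1 and rnh201 with the 2 nearest protein-coding genes on each side, namely SPBC336.05c, cdc6, sfc3 and spc24 around rnh1, and alp11, btb3, pcf11 and adk1 around rnh201. The members were picked by position, not by their values. All 10 passed the filter on low values, a mean of at least 1.

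There were 3 libraries of wild-type cells (WT, no mutation given in the labels), 3 of cells with extra RNase H from overexpression of the bacterial gene rnhA of E. coli (pRnhA), and 2 of a double deletion strain without rnh1 and rnh201 (rnh1Δrnh201Δ). All 8 came from cultures in PMG, a minimal medium, that spent 3 hours at 34 °C, and RNA was read as single 50-base reads from directional libraries. The labels do not give the promoter or vector behind rnhA, the marker used for each deletion, how much of each gene was removed, the mating type, or whether libraries of a group came from separate cultures. The p-values therefore measure the spread between these libraries. The series has 29 samples, and the others were not analysed here.

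RNase H enzymes cut the RNA strand of RNA-DNA hybrids, which form when a transcript pairs with its template or when RNA primes DNA synthesis. RNase H1, the product of rnh1, acts as a single subunit on longer hybrids. RNase H2, whose catalytic subunit is rnh201, also cuts at single ribonucleotides built into DNA and needs the accessory subunits rnh202 and rnh203. When a gene is removed, its neighbours stay on the chromosome but can lose or gain a promoter, a terminator or an overlapping transcript.

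Gene order, strand and overlaps were taken from the annotation of assembly ASM294v3. In it rnh1 and rnh201 lie on different chromosomes. SPBC336.05c follows rnh1 directly on the same strand, and cdc6 runs toward both from the opposite strand. The annotated transcript of cdc6 spans all of SPBC336.05c and overlaps the end of rnh1. On the other side of rnh1, sfc3 and spc24 run away from it on the opposite strand. The arrangement at rnh201 is similar in part: alp11 precedes it and adk1 follows it, both on its own strand, while pcf11 lies on the opposite strand and overlaps rnh201 and adk1. The counting rule for overlapping genes is not stated, so values of cdc6, SPBC336.05c, rnh1, rnh201, pcf11 and adk1 are uncertain to the extent that reads were shared or dropped.

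The values are the authors' DESeq2 normalized counts, rounded by them to 2 significant digits, and raw depth is unknown. They summed to between 8392168 and 9455805 per library. Differences are on the log2(value + 1) scale from limma-trend with Benjamini-Hochberg adjustment over 6456 genes and a threshold of 0.05. The libraries differed in mating type: markers of M cells (mat1-Mc, mfm1, mfm2, mfm3, mam2) summed to 3337 to 4704 in 5 libraries and to 62 to 144 in the other 3, where markers of P cells (mat2-Pc, map2, map3) summed to 970 to 1240 against 199 to 231. The libraries of the P kind were WT replicate 3, pRnhA replicate 3 and rnh1Δrnh201Δ replicate 1. Of the markers, mfm3 overlapped between the kinds, at 7 to 25 in the M kind and 8 to 15 in the P kind. So did map2, at 38 to 68 and 59 to 140. The other markers did not overlap.

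The deleted genes came first. The normalized count of rnh1 was 320, 300 and 290 in WT, 300, 300 and 320 in pRnhA, and 36 and 23 in rnh1Δrnh201Δ. That of rnh201 was 390, 360 and 300 in WT, 410, 460 and 440 in pRnhA, and 7 and 12 in rnh1Δrnh201Δ. For both genes the deletion libraries lay far below all 6 others, as the genotype in the labels states. For genes that were not deleted, bulk RNA cannot tell a transcript made in fewer cells from one made at a lower level per cell.

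Neither deleted gene was at 0. The rnh1 count that remained was 11.9% of the WT mean in rnh1Δrnh201Δ replicate 1 and 7.58% in replicate 2. For rnh201 it was 2% and 3.43%, so the replicate with more rnh1 had less rnh201. The rnh201 counts of 7 and 12, in 2 libraries, are too low to read a pattern from this order. The row of ura4, a uracil synthesis gene and common marker, was at 0 or 1 in all 8 libraries. It was at 0 also in WT, for which the labels give no mutation. The row of sfc7 was at 0 in all 8 libraries too, so what a row at 0 reflects is not known here. The genes leu1 and his3 were at 2000 or above in each library. The log2 difference from WT was -3.35 for rnh1 (95% interval -3.74 to -2.96, limma adjusted p 9.4e-05) and -5.10 for rnh201 (-5.57 to -4.63, limma adjusted p 2.6e-05). Where in the 2 genes the remaining reads lie was not tested.

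In pRnhA, where both genes are intact, rnh1 differed from WT by 0.02 (95% interval -0.34 to 0.37, limma adjusted p 0.96). For rnh201 the pRnhA libraries all lay above the WT libraries, as for 15.6% of all genes, at 0.33 (-0.10 to 0.75, limma adjusted p 0.25), which did not pass. The authors' deposited table gives this gene a log2 fold change of 0.32 with an adjusted p of 0.01. It is the single member with an adjusted p under 0.05 for pRnhA there, where 32.4% of all genes with a value have one. Under limma 0 of the 10 members passed in pRnhA, against 20.2% of all genes, and 0 of the 10 had an unadjusted p under 0.05, against 35.6%.

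Among the neighbours, SPBC336.05c rose in the deletion strain. It is named hen1 in assembly ASM294v3, and its relatives in plants and animals add a methyl group to the 3′ end of small RNAs. Its normalized count was 65, 59 and 69 in WT, 58, 51 and 61 in pRnhA, and 150 and 170 in rnh1Δrnh201Δ. The 2 deletion libraries lay above all 6 others, and WT and pRnhA overlapped. The mean rose 2.49-fold over WT and 2.82-fold over pRnhA, and rounding of the deposited values can place the first between 2.39 and 2.58. Within the P kind the counts were 69 in WT, 61 in pRnhA and 150 in the deletion strain, and within the M kind 59 and 65, 51 and 58, and 170.

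The log2 difference of SPBC336.05c was 1.30 against WT (95% interval 0.95 to 1.65, limma adjusted p 0.027) and 1.48 against pRnhA (1.14 to 1.83, limma adjusted p 0.0054). Against the mean of the 2 groups with intact loci it was 1.39 (1.08 to 1.70, limma adjusted p 0.0082). The authors' deposited table gives 1.17 with an adjusted p printed as 0.00. Among all 6456 genes, 73 had a larger rise against WT and 29 against pRnhA. The call against WT depended on which libraries entered the fit: leaving out 1 library kept it between 1.21 and 1.39, but the adjusted p was 0.15 without WT replicate 2 (1.24), 0.084 and 0.061 without pRnhA replicates 1 and 2 (both 1.30), 0.24 without rnh1Δrnh201Δ replicate 2 (1.21), and 0.16 with WT and rnh1Δrnh201Δ alone (1.30). Against pRnhA it was lost without rnh1Δrnh201Δ replicate 2 (1.39, limma adjusted p 0.095), a fit in which the lone deletion library is assumed to vary like the others. Against the mean of both groups it was lost without pRnhA replicate 1 (1.40, limma adjusted p 0.06) and without rnh1Δrnh201Δ replicate 2 (1.30, limma adjusted p 0.204).

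**Figure D1:**
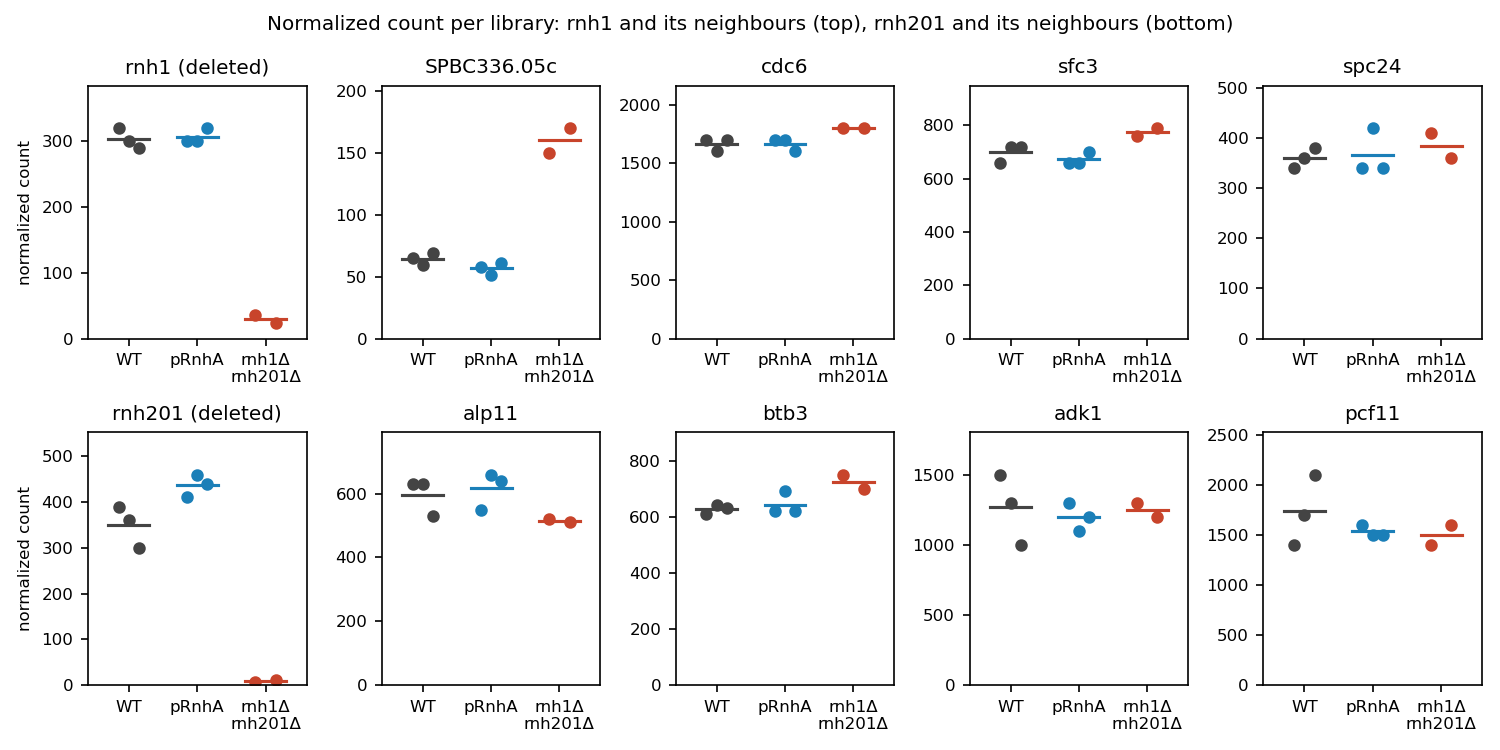
Normalized count (y axis, linear from 0, a separate scale per gene) of the 10 genes in each library, grouped as WT (3), pRnhA (3) and rnh1Δrnh201Δ (2); points are libraries and bars are group means. The deletion libraries are lowest for rnh1 and rnh201 and highest for SPBC336.05c, at 150 and 170, while the other 7 neighbours differ little between groups.

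Of the 10 members, 3 passed the threshold in rnh1Δrnh201Δ against WT, rnh1 and rnh201 lower and SPBC336.05c higher. The calls of rnh1 and rnh201 follow from the genotype, since both genes are deleted. Among the 8 neighbours 1 passed. Over all genes 0.294% passed, 0.0774% higher and 0.217% lower. The authors' deposited table has the same 3 past 0.05, against 15.4% of all genes with a value. Against pRnhA the 3 passed again in the same directions, with 0.356% of all genes (0.232% higher, 0.124% lower), and against the mean of WT and pRnhA 0.0929% passed. These comparisons share libraries: all 3 use the same 2 deletion libraries.

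The ratio of 2 genes within one library does not depend on how libraries were scaled. The log2 ratio of SPBC336.05c to cdc6, the catalytic subunit of the replicative DNA polymerase delta, was -4.69, -4.74 and -4.60 in WT, -4.85, -5.03 and -4.69 in pRnhA, and -3.58 and -3.40 in rnh1Δrnh201Δ. Since the genes differ in length, the change in this ratio between libraries is informative and its level is not. The mean ratio was higher in the deletion strain than in WT by 1.19 relative to cdc6, by 1.15 relative to sfc3 and by 1.21 relative to spc24. All 3 ratios separated the deletion libraries from the other 6. They share SPBC336.05c, whose counts already did so, and are therefore not separate results.

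**Figure D2:**
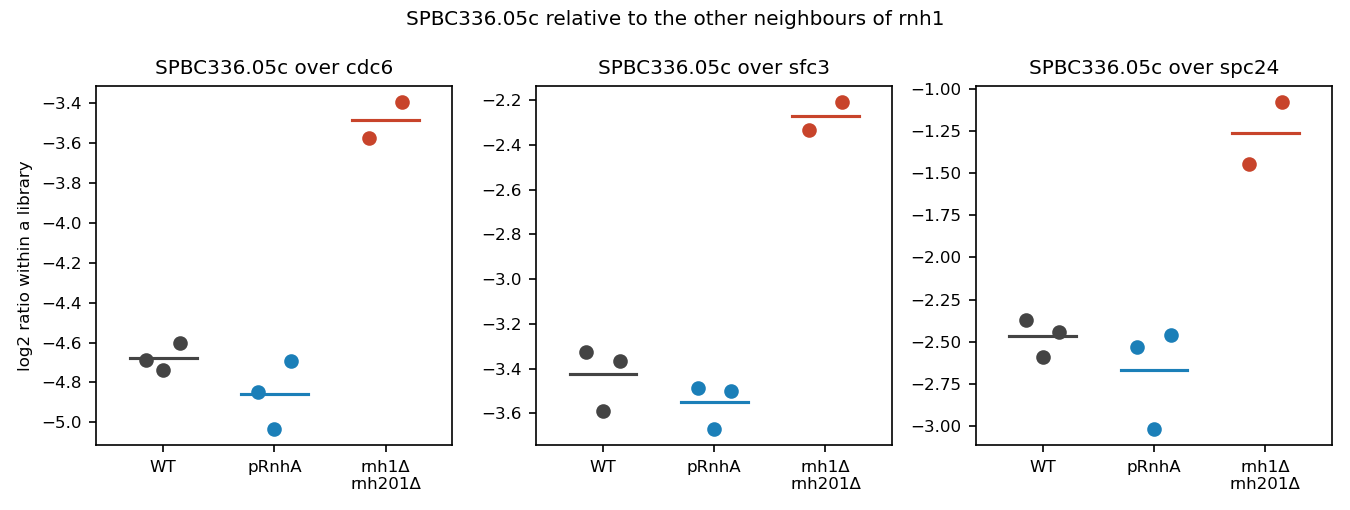
Log2 ratio, within each library, of SPBC336.05c to cdc6, sfc3 and spc24 (y axis, a separate scale per panel), by group; points are libraries and bars are group means. In each panel both rnh1Δrnh201Δ libraries lie above all WT and pRnhA libraries, by a mean of 1.15 to 1.21 over WT. Every panel shares SPBC336.05c, so the panels are not independent.

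The gene that converges on rnh1, cdc6, was at 1700, 1600 and 1700 in WT, 1700, 1700 and 1600 in pRnhA, and 1800 in both rnh1Δrnh201Δ libraries. The gap between 1700 and 1800 is a single rounding step. The log2 difference was 0.11 (95% interval -0.02 to 0.25, limma adjusted p 0.32). On the far side of rnh1, sfc3 encodes a subunit of TFIIIC, the factor that recruits RNA polymerase III to tRNA genes. It was at 660, 720 and 720 in WT, 660, 660 and 700 in pRnhA, and 760 and 790 in rnh1Δrnh201Δ, a log2 difference of 0.15 from WT (-0.01 to 0.31, limma adjusted p 0.26). The kinetochore gene spc24, a subunit of the Ndc80 complex, was at 340, 360 and 380 in WT, at 340, 420 and 340 in pRnhA, and at 410 and 360 in rnh1Δrnh201Δ, with all groups overlapping (0.10, -0.17 to 0.36, limma adjusted p 0.68).

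A transcript listed as antisense to sfc3, noticed after its values were seen, went the other way. The row sfc3-antisense-1 was at 58, 84 and 75 in WT, 73, 68 and 63 in pRnhA, and 44 and 40 in rnh1Δrnh201Δ, below all 6 others. The log2 difference was -0.76 (95% interval -1.19 to -0.32) and did not pass under limma (adjusted p 0.088). It passed without WT replicate 1 (-0.90, limma adjusted p 0.0105), in a fit that called 19.6% of all genes. It did not pass without WT replicate 2 or 3 or without any of the pRnhA replicates. The authors' deposited table gives -0.68 with an adjusted p of 0.01. Whether counting used strand is not stated, so reads of sfc3 and of its antisense row may not be fully separated.

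At rnh201, the next gene on the same strand is adk1, an adenylate kinase that balances adenine nucleotides. Its position is not the same as that of SPBC336.05c, which follows rnh1 directly. In gene order pcf11, on the opposite strand, lies between rnh201 and adk1. The count of adk1 was 1500, 1300 and 1000 in WT, 1300, 1100 and 1200 in pRnhA, and 1300 and 1200 in rnh1Δrnh201Δ. The deletion libraries fell inside the WT range, and the interval of the log2 difference, -0.35 to 0.35 around 0.00 (limma adjusted p 1), does not reach the value of 1.30 seen for SPBC336.05c. The sign of so small a value turned under other settings.

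The other 3 neighbours of rnh201 did not pass either. The convergent gene pcf11, whose product takes part in cleavage of pre-mRNA 3′ ends and in termination by RNA polymerase II, was at 1400, 1700 and 2100 in WT, 1600, 1500 and 1500 in pRnhA, and 1400 and 1600 in rnh1Δrnh201Δ (-0.19, 95% interval -0.53 to 0.15, limma adjusted p 0.50). The spread within WT was wider than the difference between the groups. Just before rnh201, alp11, a cofactor in folding of tubulin, was at 630, 630 and 530 in WT, 550, 660 and 640 in pRnhA, and 520 and 510 in rnh1Δrnh201Δ (-0.21, -0.45 to 0.04, limma adjusted p 0.31). The BTB-domain gene btb3, an adaptor of cullin ubiquitin ligases, was at 610, 640 and 630 in WT, 620, 690 and 620 in pRnhA, and 750 and 700 in rnh1Δrnh201Δ (0.21, 0.04 to 0.38, limma adjusted p 0.16).

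The deletion libraries did not overlap the WT libraries for 5 of the 8 neighbours: cdc6, SPBC336.05c, sfc3 and btb3 lay higher and alp11 lower. For cdc6 (1700 against 1800) and alp11 (530 against 520) the gap was a single rounding step, which is not resolved. Over all genes the libraries did not overlap for 28.9%, gaps of a single step included, with 15% of all genes higher and 13.9% lower. Against pRnhA the count was again 5 of 8, 4 higher and 1 lower, with 32% over all genes (17.9% higher, 14.1% lower). Between pRnhA and WT it was 0 of 8, with 33.7% over all genes. Apart from SPBC336.05c these were small differences. The 7 other neighbours ranged from -0.21 to 0.21 in the deletion strain, with a median absolute log2 difference of 0.15, and 0.15 was also the median over all genes.

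**Figure D3:**
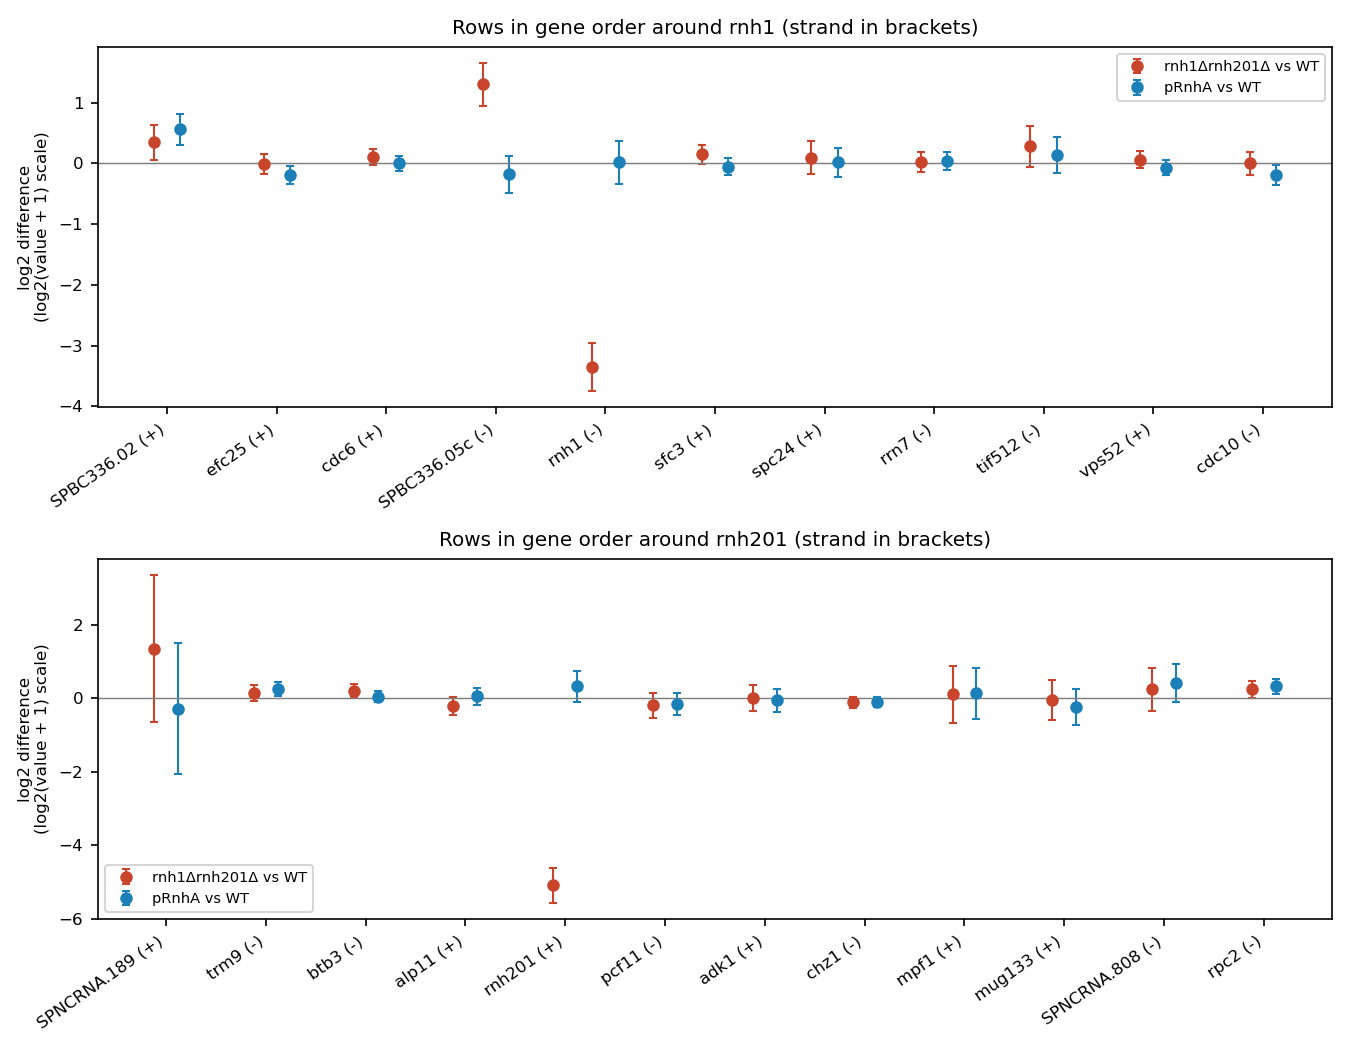
Log2 difference from WT with its 95% interval (y axis) for each tested gene among the 10 nearest annotated genes on each side of rnh1 (top) and rnh201 (bottom), in chromosome order, for rnh1Δrnh201Δ (red) and pRnhA (blue). In the deletion strain SPBC336.05c (1.30), rnh1 (-3.35) and rnh201 (-5.10) stand off the zero line past the threshold; SPNCRNA.189 has the widest interval.

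The surrounding windows were then described. The 10 nearest annotated genes on each side of both loci include 15 further rows of the table, and 13 of them were tested. In rnh1Δrnh201Δ 0 of these 13 passed under limma, with a median log2 difference of 0.11, and 2 had an unadjusted p under 0.05. Over all genes 0.294% passed and 21.3% had such a p. The largest value was 1.35 for the noncoding RNA SPNCRNA.189, whose counts were 0 to 2 in WT and 6 and 3 in the deletion strain, so its interval ran from -0.65 to 3.35. Without WT replicate 1 the count was 3 in place of 0, namely SPBC336.02, rpc2 and tif512 (0.45, 0.33 and 0.42), in a fit that called 19.6% of all genes. The coding gene next to cdc6, efc25, was at -0.01, and rrn7 and tif512, the next genes after spc24, were at 0.03 and 0.28.

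In pRnhA 2 of the 13 passed, both higher, where 20.2% of all genes passed and 8.88% were called higher. SPBC336.02 was at 500, 410 and 390 in WT and at 650, 670 and 590 in pRnhA (0.56, SE 0.11, limma adjusted p 0.015). The RNA polymerase III subunit gene rpc2 was at 1400, 1200 and 1100 in WT and at 1500, 1600 and 1500 in pRnhA (0.32, SE 0.09, limma adjusted p 0.037). In the deletion strain SPBC336.02 was at 600 and 500 and rpc2 at 1500 and 1400. Neither passed under limma (0.35 and 0.24, limma adjusted p 0.17 and 0.21). The authors' deposited adjusted p-values for that strain are 0.03 for SPBC336.02 and 0.07 for rpc2, with 15.4% of all genes under 0.05. Both calls in pRnhA were lost in several of the fits that left out 1 library, among them those without WT replicate 2 (0.52 and 0.30) and without pRnhA replicate 2 (0.52 and 0.29). Of these fits, only the one without WT replicate 1 kept the call of rpc2 (0.42).

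Partners of the members at other places in the genome were listed by complex, 31 genes in 9 lists, and 30 were tested; sfc7 was listed at 0 throughout. In rnh1Δrnh201Δ the median log2 difference of the 30 was 0.03, against 0.01 over all genes. Under limma 0 of 30 passed and 3 had an unadjusted p under 0.05. Over all genes 0.294% passed and 21.3% had such a p. Without WT replicate 1, 5 partners passed, among them sen1 and btb2 (0.55 and 0.33), in a fit that called 19.6% of all genes. Neither accessory subunit of RNase H2 passed. SPBC1347.08c, which is rnh202, was at 830, 810 and 800 in WT and at 840 and 900 in the deletion strain (0.10, 95% interval -0.04 to 0.23, limma adjusted p 0.40). SPAC12B10.15c, which is rnh203, was at 86, 32 and 43 in WT and at 97 and 29 in the deletion strain, a spread that leaves its difference of 0.11 with an interval of -1.09 to 1.31.

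The DNA polymerase delta subunits cdc1, cdc27 and cdm1 ranged from -0.54 to -0.07 in the deletion strain, the TFIIIC subunits sfc1, sfc4, sfc6 and sfc9 from -0.19 to 0.02, and the Ndc80 complex genes ndc80, nuf2 and spc25 from -0.07 to 0.15. The tubulin folding genes alp1, alp21 and alp31 ranged from -0.10 to 0.14, the cleavage factor genes rna14 and ctf1 from -0.01 to 0.10, and the cullin genes cul3, btb1 and btb2 from -0.11 to 0.22. The small RNA genes ago1, dcr1 and rdp1, which act in RNA interference, ranged from -0.19 to 0.12, so that SPBC336.05c was higher without a call in these 3 genes.

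Among 7 genes that act on RNA primers, ribonucleotides or hybrids, limma called 0 in the deletion strain and 1 in pRnhA. Over all genes it called 0.294% and 20.2%. The gene called was sen1, a helicase known in budding yeast for unwinding RNA-DNA hybrids at sites of termination. It was at 1600, 1300 and 1300 in WT, 2300, 2300 and 2100 in pRnhA, and 2000 and 1800 in rnh1Δrnh201Δ. The groups did not overlap, with WT lowest and pRnhA highest. In pRnhA it rose by 0.68 (SE 0.09, limma adjusted p 0.005), and in the deletion strain it was at 0.45 (SE 0.10, limma adjusted p 0.075). The difference between the 2 strains, -0.23, did not pass (95% interval -0.47 to 0.00, limma adjusted p 0.40). In the deletion strain the sen1 call depended on setting, passing without WT replicate 1 and under scaling to library totals (0.51). Its paralogue dbl8 and the topoisomerase gene top1 were at 0.17 and 0.15 there, with limma adjusted p of 0.15 and 0.18. The authors' deposited adjusted p-values in the deletion strain are 0.01 for dbl8, 0.03 for top1 and 0.05 for sen1. Of all genes with a value there, 15.4% are under 0.05.

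The second partner called in pRnhA was btb2, a relative of btb3, at 390, 330 and 300 in WT and at 470, 430 and 420 in pRnhA (0.38, SE 0.11, limma adjusted p 0.038). It was not called in 7 of the 8 fits that left out 1 library. In total 2 of the 30 partners passed in pRnhA, both higher, against 8.88% of all genes called higher.

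**Figure D4:**
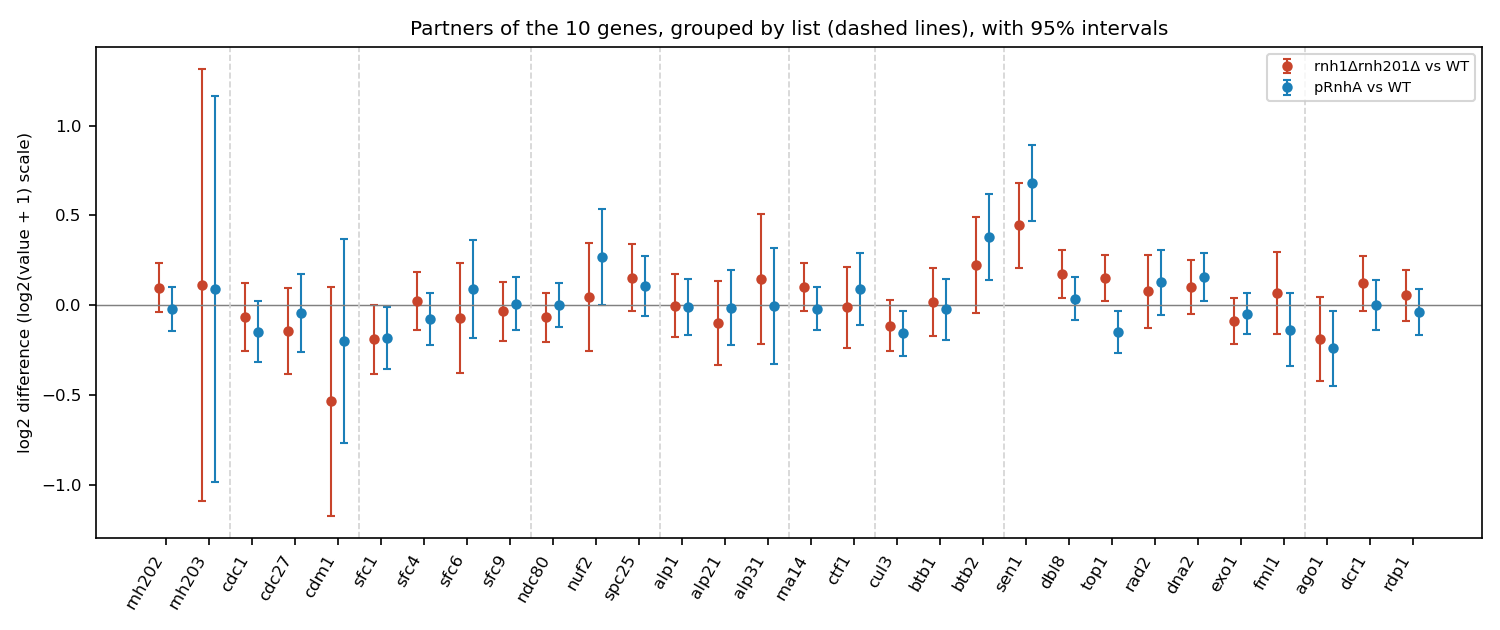
Log2 difference from WT with its 95% interval (y axis) for the 30 tested partners of the 10 genes, in rnh1Δrnh201Δ (red) and pRnhA (blue), with dashed lines between lists. Most intervals include 0; sen1 is the furthest above 0 in both strains, at 0.45 and 0.68.

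Of 5749 genes with a mean of at least 20, those whose log2 values over the 8 libraries were most like SPBC336.05c were SPNCRNA.1390, SPAC6G9.15c and omh4-antisense-1, with Pearson correlations of 0.987, 0.953 and 0.951. The genes were chosen for following SPBC336.05c over these libraries, so higher values in the deletion libraries come with the choice and are given as a description. SPNCRNA.1390 was at 44 to 47 in WT and at 67 and 69 in the deletion strain (0.59). For SPAC6G9.15c the values were 560 to 570 and 600 and 620 (0.11), and for omh4-antisense-1 they were 67 to 82 and 100 and 110 (0.50).

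The genes most like rnh1 were anc1 (0.982), rnh201 (0.981) and spg1 (0.942), and those most like rnh201 were rnh1, anc1 (0.955) and SPAC22H10.02 (0.942). The mitochondrial ADP/ATP carrier gene anc1 was at 9700, 9700 and 9500 in WT, 10000, 9100 and 9900 in pRnhA, and 7400 and 6900 in rnh1Δrnh201Δ. Its log2 difference from WT was -0.43, that of the septation GTPase gene spg1 was -0.24 and that of SPAC22H10.02 was -0.27. These genes too were chosen on the same libraries, and their values are a description.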

How the data were processed

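Per the file headers, the authors deposited one table with a DESeq2 normalized count per gene and library, log2 fold changes and adjusted p-values. The submitters' processing notes name TopHat2 2.0.5, DESeq2 and build ASM294v2, while the counting tool, annotation and use of strand are not given in the sources used here. Every deposited normalized count is whole with at most 2 significant digits, so it was treated as a rounded score: rounding moves a value of 10 or more by at most 5% and a smaller one by at most 0.5. The raw depth is unknown, so no counting interval is given. The authors' log2 fold changes and adjusted p-values, the latter with 2 decimals, are quoted as deposited. For rnh1 and rnh201 in the deletion strain these fold changes are -2.85 and -3.77, where limma gave -3.35 and -5.10. How the deposited ones were estimated is not stated, so they may not be the same measure. The reference group of the authors' fold changes is not named. Over 6456 genes these fold changes correlated with the differences from WT at 0.872 (rnh1Δrnh201Δ) and 0.934 (pRnhA). With the differences from the other strain the correlations were 0.175 and 0.452, and WT was taken as the reference.

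Values were analysed with limma-trend (limma 3.58.1, R 4.3.3) on log2(value + 1) for the 6456 of 7016 genes with a mean of at least 1. The 8 libraries entered one fit of 3 groups with 5 residual degrees of freedom and no replicate block. Intervals are 95% intervals of that fit. The fit was also run on simulated tables with noise drawn independently for each gene and library. These hold no mating-type or library structure, so they do not show how the fit performs on these data. Gene order, strand and overlaps came from ASM294v3, to which 6208 rows matched. Its start and end positions were used for order and overlap alone, and no sequences were taken from it. The annotation used for counting may place gene ends elsewhere. The alternatives were other pseudocounts, filters, scaling and fits, and leaving out each library. The members, gene lists and tests were chosen with earlier results of these data known. Named genes are the members, the window and partner genes past the threshold, ura4, leu1 and his3 as reference rows, and the 3 genes most like SPBC336.05c, rnh1 and rnh201; efc25, rrn7, tif512, SPNCRNA.189, dbl8, top1, rnh202, rnh203 and the antisense row of sfc3 were added after their values were seen.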

Additional observations from a re-analysis of the deposited data

Results flagged for a closer look

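Differences between the 2 altered strains were tested directly in the same fit. For 3 members the change in rnh1Δrnh201Δ differed from that in pRnhA past the threshold: rnh1 by -3.37 and rnh201 by -5.42 on the log2 scale, and SPBC336.05c by 1.48 (limma adjusted p 9e-05, 1.6e-05 and 0.0054). The differences of rnh1 and rnh201 follow from the genotype, since both genes are deleted. For rnh1 the highest deletion library was at 12.4% of the lowest of the other 6 libraries, and for rnh201 at 4%. No group had the 4 libraries needed to look for a single outlying one.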

How the results depend on the processing

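With the replicate number as a replicate block, SPBC336.05c was at 1.35, 1.54 and 1.44 against WT, pRnhA and their mean (limma adjusted p 0.044, 0.022 and 0.036), and 22, 1287 and 20 genes were called in rnh1Δrnh201Δ against WT, pRnhA against WT and rnh1Δrnh201Δ against pRnhA, where the fit without it called 19, 1306 and 23. Deviations of same-numbered libraries of different groups had correlations of -0.425 to 0.547 over 7 pairs, against -0.499 to 0.499 over 14 pairs with other numbers. Some same-numbered libraries differ in mating type, and in a group of 2 libraries the deviations mirror each other. These correlations therefore cannot decide whether the numbers are pairs, and the main fit did not use them as such.

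Over all alternatives, for the 10 members and SPBC336.02, rpc2, sen1 and btb2, 820 of 882 differences kept their direction and side of the threshold, 29 lost a call, 5 gained one and 28 changed sign, all of the last uncalled. For 15 other genes whose difference between rnh1Δrnh201Δ and WT is printed, 227 of 239 did so, 7 gained a call and 5 changed sign. Of the 7, 6 came without WT replicate 1 (sfc3-antisense-1, SPNCRNA.1390, anc1, spg1, tif512 and dbl8), and anc1 also passed under library totals. The reference rows ura4, leu1 and his3, and genes given by range alone, were not run one by one. The calls of rnh1 and rnh201 in the deletion strain held in all 8 fits that left out 1 library, at -3.66 to -3.04 and -5.45 to -4.75 against WT. The causes below were not tested.

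The number of genes called in rnh1Δrnh201Δ against WT was 12 with a pseudocount of 0.5, 55 with one of 5, 213 when scaled to library totals and 4 with the 2 groups alone. It ranged from 3 (without pRnhA replicate 1) to 1264 (without WT replicate 1) when 1 library was left out. For pRnhA against WT the range was 212 to 2173, and for rnh1Δrnh201Δ against pRnhA it was 5 to 93, with 35 genes without a filter and 72 with the 2 groups alone. Scaling to library totals moved the median of all genes to 0.07 in rnh1Δrnh201Δ and 0.11 in pRnhA, and the share of calls that were higher from 26.3% to 79.3% and from 43.9% to 77.1%.

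Window genes called ranged from 0 to 3 in rnh1Δrnh201Δ and from 0 to 5 in pRnhA with 1 library left out, with 1 in pRnhA without a filter and 1 with the 2 groups alone. Partners called ranged from 0 to 5 in rnh1Δrnh201Δ, with 1 under library totals, and from 1 to 6 in pRnhA, with 4 under library totals and 1 with the 2 groups alone. Between the strains 0 to 1 partners passed, with 1 without a filter and 1 with the 2 groups alone. The change in the ratio of SPBC336.05c to cdc6 ranged from 1.10 to 1.28.

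Most sign changes were small. Against WT efc25 was at 0.050 under library totals and ranged from -0.044 to 0.034 with 1 library left out, and SPAC12B10.15c (rnh203) ranged from -0.74 to 0.97. For adk1 in rnh1Δrnh201Δ against WT the value was 0.060 under library totals, 0.023 with a mating-type term, and -0.161 to 0.131 with 1 library left out. Under library totals sfc3 and adk1 in pRnhA were at 0.055 and 0.049. With the replicate block the values against pRnhA were 0.032 for pcf11 and -0.018 for adk1, and against the mean of both groups -0.049 for adk1 and -0.025 for btb2. With 1 library left out, values in pRnhA ranged from -0.081 to 0.071 for spc24, -0.222 to 0.070 for adk1, -0.0155 to 0.055 for rnh1, -0.035 to 0.128 for alp11 and -0.015 to 0.062 for btb3. Against pRnhA they ranged from -0.019 to 0.176 for spc24 and -0.131 to 0.062 for pcf11. Against the mean of both groups they ranged from -0.050 to 0.096 for adk1, -0.020 to 0.089 for btb2, -0.0088 to 0.178 for spc24 and -0.066 to 0.197 for SPBC336.02.

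The raw depth is unknown and values are rounded, so differences of 1 rounding step, as for cdc6, are not resolved. With 2 deletion libraries, leaving out 1 gives a fit in which the other is assumed to vary like the WT and pRnhA libraries.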
